A study of Homo sapiens with 26 samples.

Results

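The enzymes that build the ganglioside GD2 were followed at the RNA level in KELLY, a human neuroblastoma cell line in which MYCN is amplified. The 9 genes were chosen by symbol from the synthesis pathway, out of 26485 genes in each deposited table, by a rule that uses no measured value. Earlier results of these data were, however, known when the genes and the lists of neighbouring pathways were chosen. They are UGCG, B4GALT5, B4GALT6, ST3GAL5, ST8SIA1, B4GALNT1, B3GALT4, ST3GAL2 and ST8SIA5. RNA had been sequenced in 26 libraries. In cell culture, 3 lines were kept for 72 h with doxycycline or its solvent DMSO, with 3 libraries in each of 6 groups. The EV line carried the empty lentiviral vector, given as F1HUTG in the labels, and the sh4 and shAMB lines each carried a hairpin RNA directed against RUNX1T1, which doxycycline induces. The genotype labels of these libraries count up from RUNX1T1 to RUNX1T6 and were read as RUNX1T1 throughout. RUNX1T1 encodes a transcriptional co-repressor. The remaining 8 libraries were KELLY tumors grown in immunodeficient NSG mice, 4 labelled control (genotype WT, control food) and 4 labelled RUNX1T1 KO (doxycycline food). The study's text describes an inducible hairpin in these tumors, so KO is used here only as the label. It also says that the hairpin used in mice, built on an Ambion siRNA sequence, was used in culture, so that the tumors and a culture line share a hairpin. No label states which line that is, although the name shAMB may be short for Ambion. If so, a change shared by shAMB and the tumors comes from 1 hairpin and is not a repeat with another. Whether a line was grown from 1 clone, and whether reads of the host mouse were removed from the tumor libraries, is not given in the sources used here. No label states that replicates came from separate cultures, so that p-values in cell culture measure the spread between these samples, which may be technical. The cell culture count columns are headed Neg and Pos, which were read as DMSO and doxycycline, and every cell culture direction rests on this reading.

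Gangliosides are sialic acid-bearing glycosphingolipids of the outer cell membrane, built in the Golgi by adding sugars to ceramide in a fixed order. UGCG adds glucose, B4GALT5 and B4GALT6 add galactose to give lactosylceramide, ST3GAL5 adds the sialic acid that makes GM3, and ST8SIA1 adds another to make GD3. B4GALNT1 turns GD3 into GD2 and GM3 into GM2, and B3GALT4, ST3GAL2 and ST8SIA5 act further along, on the way to the complex gangliosides of mature neurons. GD2 is abundant on neuroblastoma cells and is the target of therapeutic antibodies.

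RefSeq promoter sequences (GRCh38.p14, 250 bases before to 50 bases after the start) were matched for 4 of the 9 genes, namely UGCG, B4GALT5, ST3GAL5 and ST8SIA1, and not for B4GALT6, B4GALNT1, B3GALT4, ST3GAL2 and ST8SIA5. The windows of ST8SIA1, B4GALT5 and UGCG are shown because the RNA of these genes changed with at least 1 hairpin, in part in opposite directions. Capitals mark matches, on either strand, to the palindromic E-box CACGTG, to the E-box CAGATG, which reads CATCTG on the other strand, and to the GC-box GGGCGG, which reads CCGCCC on the other strand. E-boxes are the sequences that basic helix-loop-helix factors bind, and GC-boxes are bound by Sp1-family factors. No searched motif overlaps another.
ST8SIA1 promoter, chr12:22334658-22334957, minus strand: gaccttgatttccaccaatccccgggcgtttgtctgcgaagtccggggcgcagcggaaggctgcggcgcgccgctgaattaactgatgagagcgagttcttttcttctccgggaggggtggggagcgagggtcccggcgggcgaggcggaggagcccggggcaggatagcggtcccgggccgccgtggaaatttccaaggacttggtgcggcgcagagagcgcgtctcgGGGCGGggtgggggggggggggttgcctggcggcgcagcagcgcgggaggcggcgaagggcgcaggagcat
B4GALT5 promoter, chr20:49713829-49714128, minus strand: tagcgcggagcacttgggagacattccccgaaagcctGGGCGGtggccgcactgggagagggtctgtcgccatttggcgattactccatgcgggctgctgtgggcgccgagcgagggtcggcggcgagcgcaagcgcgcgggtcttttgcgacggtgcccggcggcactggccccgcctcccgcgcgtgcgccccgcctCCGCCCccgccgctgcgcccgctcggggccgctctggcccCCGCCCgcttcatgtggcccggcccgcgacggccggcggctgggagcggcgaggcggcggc
UGCG promoter, chr9:111896564-111896863, plus strand: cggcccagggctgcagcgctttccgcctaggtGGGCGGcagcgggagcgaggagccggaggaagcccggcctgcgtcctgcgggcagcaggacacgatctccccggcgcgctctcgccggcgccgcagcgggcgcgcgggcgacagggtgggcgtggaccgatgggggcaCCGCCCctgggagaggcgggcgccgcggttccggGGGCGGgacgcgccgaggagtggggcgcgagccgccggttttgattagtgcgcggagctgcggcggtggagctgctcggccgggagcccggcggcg
ST8SIA1 held 1 GC-box match, B4GALT5 held 3 and UGCG held 3, and none of the 3 windows held CACGTG or CAGATG. The ST8SIA1 window lies inside the span that GENCODE gives the gene. Of all 35116 promoter windows of this length, 45% held GGGCGG, 14.7% held CAGATG and 7.26% held CACGTG. The first of the 5 ST3GAL5 entries held 4 GC-box matches and 1 CAGATG. A match is a description of the letters in the window.

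Libraries held 35115915 to 54736733 expected counts in cell culture, and the tumors 47346063 to 62378060. Values are given as CPM, a library's counts scaled to a fixed total after correction by TMM factors. Tests were edgeR's quasi-likelihood F test with Benjamini-Hochberg adjustment over 14905 genes in culture and 15960 in the tumors, and an adjusted p under 0.05 is called a change. RUNX1T1 RNA did not pass this test with doxycycline in any line or in the tumors (log2 fold changes of −0.16, −0.11, 0.06 and −0.23 for EV, sh4, shAMB and tumors labelled KO), so that every direction below is between libraries so labelled. It passed in sh4 without doxycycline replicate 2 (−0.16, adjusted p 0.0434), and with GC and length trends taken out of each library it passed in sh4 (−0.29, adjusted p 0.00159) and in the tumors (−0.38, adjusted p 0.00929). In the main fit the sh4 effect on RUNX1T1 was not below that of EV (difference 0.04, 95% confidence interval −0.12 to 0.21, adjusted p 0.686). The effect of doxycycline on RUNX1T1 was higher in shAMB than in EV (0.21, adjusted p 0.0353), a call lost without any of 8 of the 12 libraries (0.17 to 0.22, adjusted p 0.0523 to 0.0941), and with RLE factors, no filter, DESeq2, the replicate block or GC and length trends taken out (0.16 to 0.21, adjusted p 0.0513 to 0.182). With DMSO, the sh4 line was already lower than EV in RUNX1T1 (−0.29, adjusted p 0.0144), a call lost without EV DMSO replicate 1 or sh4 DMSO replicate 1 or 2 and with GC and length trends taken out (−0.11). These values are of RNA alone. The study's text reports significantly lower RUNX1T1 levels in KELLY cells after 72 h of doxycycline with 2 hairpins, in a legend that does not name RNA or protein. It also reports loss of RUNX1T1 staining in KELLY tumors after knockdown. All 11 neuroblastoma markers listed, TH and DBH among them, were at or above 1 CPM on average in every group. Their summed level was higher with doxycycline in shAMB (8970.8 to 9799.0 CPM against 4715.7 to 5006.6) and in tumors labelled KO (8161.2 to 11460.2 against 5139.2 to 6374.7), and nearer in sh4 (5883.9 to 7390.4 against 4978.1 to 5854.7). Markers of other cell types moved with some groups. With doxycycline, endothelial markers summed to 5.53 to 7.96 CPM in shAMB against 2.22 to 2.63 with DMSO, and to 4.77 to 6.82 in sh4 against 2.72 to 3.21. Leukocyte markers summed to 1.52 to 2.31 CPM in shAMB against 0.641 to 0.776, and to 1.81 to 2.72 in tumors labelled KO against 1.15 to 1.63. Schwann cell markers were lower in tumors labelled KO (3.79 to 4.34 CPM against 6.06 to 9.2) and higher with doxycycline in sh4 (5.51 to 6.38 against 4.33 to 4.7) and shAMB (5.05 to 5.96 against 4.2 to 4.55). Endothelial markers (8.71 to 14.6 CPM in control tumors and 10.8 to 15.7 in those labelled KO) and fibroblast markers (58 to 95 and 86.2 to 129.3) overlapped between the tumor groups. SOX10, of the Schwann cell list, was at 0 in 3 culture groups and ITGAM, of the leukocyte list, in 4. With doxycycline in sh4 and shAMB, VWF was the only endothelial marker at 1 CPM or more on average. In shAMB with doxycycline, CD68 was the only leukocyte marker at that level. The culture libraries came from a cell line, so the sums there give RNA of these genes and do not count cells of other types. The part of these shifts in the results was not tested. In bulk RNA of the tumors, fewer cells of a type and less RNA per cell cannot be told apart. Doxycycline replicate 3 of sh4 stood apart from its group, with a spread of log2 differences from the other 2 replicates of 0.404 over genes, against 0.109 to 0.279 in the other sh4 libraries. Control replicate 1 and KO replicates 1 and 4 stood apart among the tumors (0.361 to 0.412, against 0.192 to 0.284 in the rest). Doxycycline and DMSO libraries of shAMB also differed in their slope on GC content (0.0486 to 0.246 log2 per 10% GC against −0.289 to −0.141). B4GALNT1 and ST3GAL2 have 58.3% and 55.5% GC, against a median of 48.2% over genes.

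Along the pathway the levels were uneven, and of the enzymes on the way to GD2, ST3GAL5 and ST8SIA1, which make GM3 and GD3, were lowest. Compared per length, in EV cells with DMSO, B4GALT5 was at 25.7 ± 0.492 CPM per kb (SD, n = 3), B4GALNT1 at 10.7 ± 2.42 and UGCG at 10.3 ± 1.24, and the last 2 overlapped. ST3GAL2 followed at 3.82 ± 0.552, B4GALT6 at 2.78 ± 0.239 and ST3GAL5 at 1.6 ± 0.222 CPM per kb, none overlapping its neighbour in the order. The GD3 synthase ST8SIA1 was at 0.179 ± 0.0364, ST8SIA5 at 0.0912 ± 0.0158 and B3GALT4 at 0.00533 ± 0.00924 CPM per kb. The order of the control tumors was close to this, with B4GALT5 at 21.9 ± 1.44 CPM per kb and ST8SIA1 at 0.284 ± 0.0433 (n = 4), although the 2 tables were made separately and were not tested against each other. In shAMB with doxycycline B4GALNT1 stood at the top of the order, at 16.1 ± 1.75 CPM per kb, overlapping B4GALT5 at 15.6 ± 0.35, and ST8SIA5 (0.463 ± 0.0589) was above ST8SIA1 (0.0603 ± 0.00648). Tumors labelled KO showed the same exchange, with ST8SIA5 at 0.657 ± 0.046 and ST8SIA1 at 0.184 ± 0.0406 CPM per kb.

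**Figure D1:**
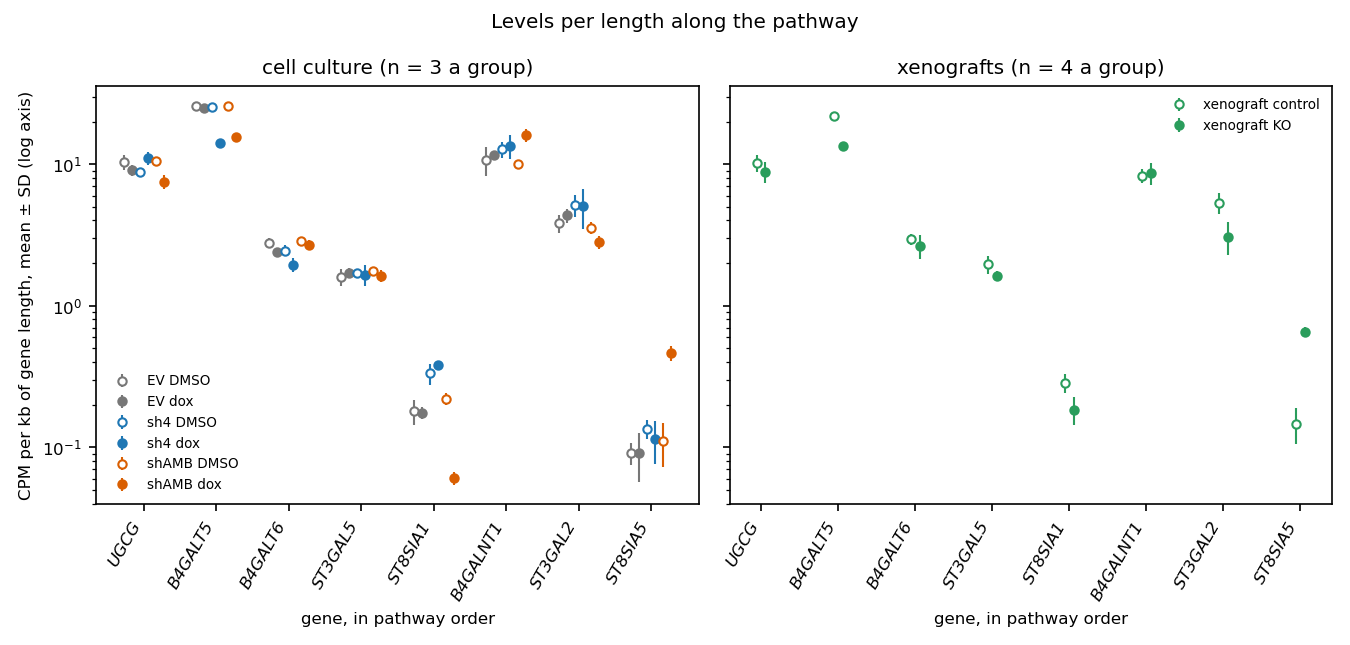
Levels of 8 genes in CPM per kb of gene length on a log axis, as mean ± SD of the libraries of each group, with genes in pathway order and cell culture and tumors (xenografts) in separate panels. Open circles are DMSO or control groups and filled circles doxycycline or KO groups. ST8SIA1 and ST8SIA5 lie below all other genes in every group, and ST8SIA1 of shAMB with doxycycline, at 0.0603 CPM per kb, is the lowest point. B3GALT4 is left out because 8 libraries held no count of it.

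UGCG, glucosylceramide synthase, opens the pathway and lies on chromosome 9 at 111896814 to 111935369 (hg38, plus strand, GENCODE annotation). In the sh4 line it was at 32.9, 35.7 and 36.6 CPM with DMSO and 47.2, 46.8 and 38.9 CPM with doxycycline. In the shAMB line it was at 42.1, 45.4 and 40.1 CPM with DMSO and 33.2, 31 and 26.5 CPM with doxycycline. The doxycycline libraries thus lay above all DMSO libraries in sh4 and below all of them in shAMB. UGCG rose in sh4 (log2 fold change 0.34, SE 0.104, edgeR adjusted p 0.0169) and fell in shAMB (−0.49, SE 0.105, adjusted p 0.000709), and the effects differed (0.83, 95% confidence interval 0.51 to 1.14, adjusted p 0.00021). The EV line held 45.9, 42.5 and 36.1 CPM with DMSO and 36.6, 33.3 and 39.7 CPM with doxycycline, and these groups overlapped (log2 fold change −0.18, SE 0.105, adjusted p 0.672). The effect in sh4 was above that in EV (difference 0.52, adjusted p 0.0136), while that of shAMB missed the threshold (−0.31, adjusted p 0.103). Control tumors were at 47.5, 34.2, 42.2 and 39.1 CPM and tumors labelled KO at 26.8, 39.8, 37.5 and 38.1 CPM. These overlapped, with a log2 fold change of −0.20 (95% confidence interval −0.51 to 0.11, adjusted p 0.293). The rise in sh4 missed the threshold without DMSO replicate 1, doxycycline replicate 1 or doxycycline replicate 2 (log2 0.28 to 0.30, adjusted p 0.0684 to 0.0927), and was 0.42 without doxycycline replicate 3, the library that stood apart. With GC and length trends taken out of each library the values were 0.19 in sh4 and −0.20 in shAMB, and the difference between them was 0.39. Without EV DMSO replicate 1 the difference between shAMB and EV passed, at −0.39 (adjusted p 0.048).

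B4GALT5, the main lactosylceramide synthase by level, fell with both hairpins and in tumors labelled KO, and hardly moved in EV. Its gene lies on chromosome 20 at 49632945 to 49713878 (minus strand). In the sh4 line B4GALT5 was at 118.3, 118.7 and 123.2 CPM with DMSO and 67.5, 67.8 and 65.6 CPM with doxycycline. In shAMB it was at 121.9, 121.3 and 120.6 CPM with DMSO and 75.1, 73.5 and 71.8 CPM with doxycycline. EV held 124.4, 120.1 and 120.6 CPM with DMSO and 115.1, 117.7 and 120.5 CPM with doxycycline. Replicates differed by a few CPM, far less than the gap between the groups of each hairpin line. The log2 fold change was −0.84 in sh4 (SE 0.0339, adjusted p 4.54e-11), −0.72 in shAMB (SE 0.0338, adjusted p 6.77e-11) and −0.05 in EV (SE 0.0336, adjusted p 0.672). Both hairpin effects were below that of EV, by −0.79 in sh4 (95% confidence interval −0.90 to −0.69, adjusted p 1.33e-08) and −0.67 in shAMB (−0.78 to −0.57, adjusted p 2.27e-08). Control tumors were at 109.6, 93.8, 104.6 and 106.2 CPM and tumors labelled KO at 58.1, 65.8, 68.7 and 60.1 CPM, without overlap. The tumor log2 fold change was −0.71 (SE 0.0868, adjusted p 0.000121), a 1.64-fold lower level, and it stayed between −0.77 and −0.68 when any 1 tumor was left out. Between the hairpins the effect differed by −0.12 (adjusted p 0.04), a difference that missed the threshold when any of 11 of the 12 libraries was left out (−0.13 to −0.07, adjusted p 0.056 to 0.235), was −0.05 with RLE factors and −0.35 with GC and length trends taken out, so that no order of the 2 hairpins is given.

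B4GALT6, the other lactosylceramide synthase, known as the brain-enriched one, changed far less. The gene is on chromosome 18 at 31622246 to 31685836 (minus strand). Libraries of sh4 held 11.6, 10.9 and 12.9 CPM with DMSO and 9.68, 10.2 and 8.12 CPM with doxycycline. EV held 14.7, 12.5 and 12.9 CPM with DMSO and 12.2, 11 and 11.6 CPM with doxycycline. In both lines the doxycycline libraries were all below the DMSO libraries, with log2 fold changes of −0.34 in sh4 (SE 0.0973, adjusted p 0.0115) and −0.21 in EV (SE 0.0972, adjusted p 0.672), and the effects did not differ past the threshold (−0.13, 95% confidence interval −0.42 to 0.17, adjusted p 0.494). In shAMB it was at 13.3, 13.9 and 14.5 CPM with DMSO and 13.6, 13.4 and 11.9 CPM with doxycycline (log2 −0.10, adjusted p 0.391). Control tumors held 15.1, 15, 12.4 and 14.1 CPM and tumors labelled KO 9.88, 13, 12.5 and 15.7 CPM (−0.15, adjusted p 0.463). Neither pair was separated. The fall in sh4 missed the threshold without DMSO replicate 3 (−0.27, adjusted p 0.0539) and with only the libraries of that line in the fit (adjusted p 0.0926). With GC and length trends taken out it was −0.54 in sh4, it was below that of EV by −0.48 (adjusted p 0.00229), and shAMB turned to a rise of 0.19 (adjusted p 0.0374).

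The balance of the 2 lactosylceramide synthases was taken within each library, as the share of B4GALT6 in their summed counts per base of gene length, which no scaling between libraries can move. A trend of a library on GC content can still move it. B4GALT6 has 34.4% GC and B4GALT5 48%, and such trends were not taken out of the share. With DMSO this share was 8.24% to 9.33% in sh4 and 9.67% to 10.6% in shAMB. With doxycycline it was 12.3%, 12.8% and 10.8% in sh4 and 15.1%, 15.2% and 14% in shAMB, above all DMSO libraries of the same line. EV held 10.4%, 9.28% and 9.53% with DMSO and 9.41%, 8.4% and 8.61% with doxycycline, which overlapped. Control tumors held 11.9%, 13.6%, 10.4% and 11.5% and tumors labelled KO 14.3%, 16.2%, 15.2% and 20.4%, again without overlap. The means differed by 3.22 percentage points in sh4 and 4.66 in shAMB (exact two-sided permutation p 0.1 each, the smallest possible with 3 against 3), by −0.928 in EV (exact p 0.2) and by 4.67 in the tumors (exact p 0.0286, the smallest possible with 4 against 4). Adjusted over these 4 comparisons the p-values were 0.133, 0.133, 0.2 and 0.114, and once adjusted this design could not reach 0.05.

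**Figure D2:**
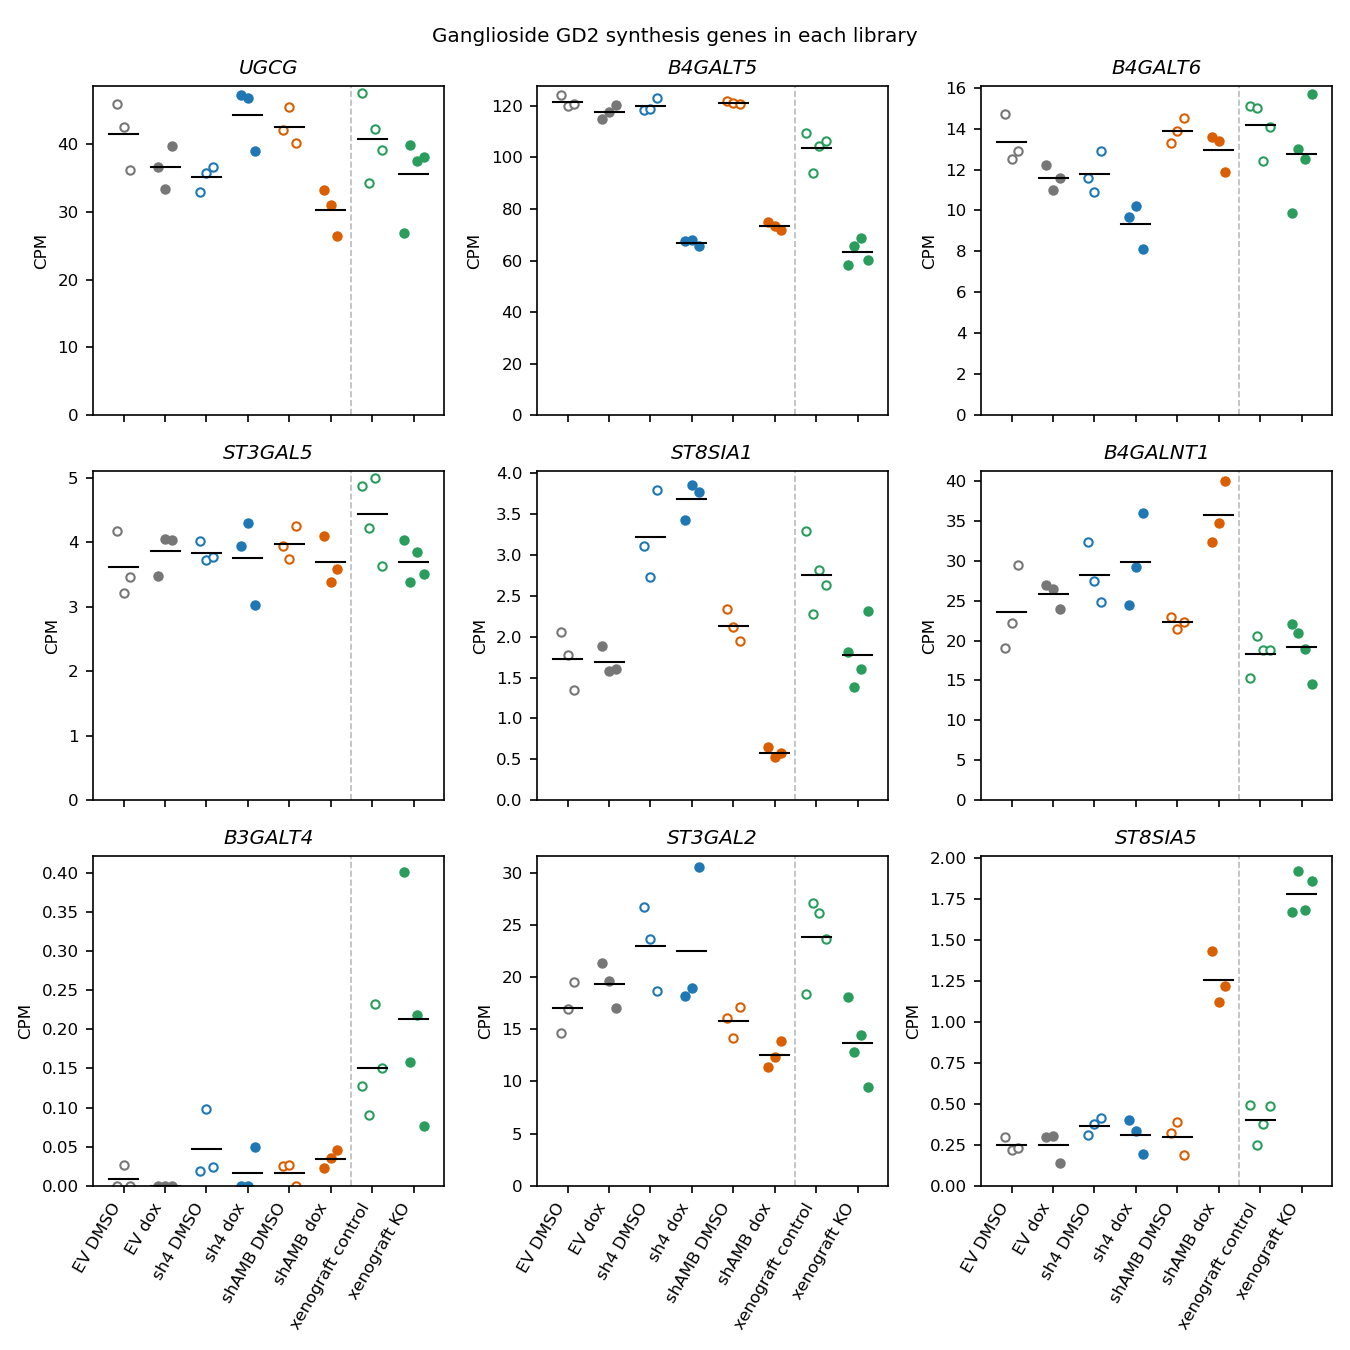
CPM of each of the 9 genes in every library, with 1 panel a gene and its own axis from 0. Points are libraries, the line is the group mean, open circles are DMSO or control, filled circles are doxycycline or KO (the label of the tumor group), and the dashed line separates culture from tumors. B4GALT5 lies at 65.6 to 75.1 CPM in the doxycycline libraries of both hairpin lines and at 115.1 CPM or more in the other culture libraries.

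ST3GAL5, GM3 synthase, through which the a-series and b-series gangliosides pass, gave no change in any comparison. It maps to chromosome 2 at 85837120 to 85905199 (minus strand). In culture, group means ran from 3.61 CPM in EV with DMSO to 3.98 CPM in shAMB with DMSO. In the tumors, which were scaled separately, they were 4.43 CPM for control and 3.69 CPM for those labelled KO. The log2 fold change with doxycycline was 0.09 in EV (95% confidence interval −0.20 to 0.38), −0.03 in sh4 (−0.31 to 0.26) and −0.11 in shAMB (−0.40 to 0.18). Tumors labelled KO were at 3.38 to 4.03 CPM and control tumors at 3.63 to 5 CPM (−0.26, −0.62 to 0.10, adjusted p 0.225). The groups overlapped in all of these, and the culture intervals leave out a 1.5-fold change in either direction.

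ST8SIA1, GD3 synthase and the entry to the b-series that holds GD2, fell in shAMB and in tumors labelled KO and did not pass the test in sh4 or EV. It maps to chromosome 12 at 22063773 to 22437041 (minus strand) and rested on 25 to 198 counts a library. In shAMB it was at 2.34, 2.11 and 1.95 CPM with DMSO and 0.649, 0.525 and 0.577 CPM with doxycycline. The sh4 line held 3.11, 2.73 and 3.79 CPM with DMSO and 3.42, 3.85 and 3.76 CPM with doxycycline. The shAMB groups were far apart and those of sh4 overlapped. ST8SIA1 fell 3.66-fold in shAMB (log2 fold change −1.87, SE 0.176, adjusted p 1.8e-07), whereas in sh4 the value was 0.20 (SE 0.147, adjusted p 0.297). EV held 2.05, 1.78 and 1.35 CPM with DMSO and 1.88, 1.58 and 1.6 CPM with doxycycline (−0.04, adjusted p 0.906). The shAMB effect was below that of EV by −1.83 (95% confidence interval −2.34 to −1.32, adjusted p 1.53e-05), and that of sh4 was above that of shAMB by 2.07 (1.58 to 2.56, adjusted p 1.91e-06). The sh4 effect did not differ past the threshold from that of EV (0.24, −0.23 to 0.71). Control tumors held 3.29, 2.28, 2.81 and 2.63 CPM and tumors labelled KO 1.81, 1.39, 1.6 and 2.31 CPM. These overlapped in 1 library of each group, and the tumor log2 fold change was −0.63 (SE 0.211, adjusted p 0.0338). That call was lost without control replicate 1, 3 or 4 or KO replicate 2 or 3 (−0.66 to −0.53, adjusted p 0.0622 to 0.103).

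The lines already differed in ST8SIA1 with DMSO. The 3 sh4 libraries (2.73 to 3.79 CPM) were all above the 3 EV libraries (1.35 to 2.05 CPM), with a log2 difference of 0.88 (SE 0.155, adjusted p 0.00833), 1.84-fold higher in sh4. ST8SIA1 was the only one of the 8 genes tested that passed in this comparison, where 1.12% of all genes did (0.597% higher and 0.523% lower). It also had groups that did not overlap, as did ST8SIA5, against 21.4% of all genes. The shAMB and EV lines with DMSO differed past the threshold in none of the 8 genes, where 1.52% of all genes passed with edgeR (1.11% higher and 0.416% lower). None had an unadjusted p under 0.05 (1639 of 14905 genes) or groups that did not overlap (18% of all genes), and DESeq2 called none (292 of 15069 genes). For ST8SIA1 this log2 difference was 0.30 (95% confidence interval −0.04 to 0.64, adjusted p 0.529).

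B4GALNT1, GM2/GD2 synthase, is the enzyme that completes GD2. Its gene lies on chromosome 12 at 57623409 to 57633239 (minus strand). The shAMB line held 23, 21.5 and 22.3 CPM with DMSO and 32.3, 34.7 and 39.9 CPM with doxycycline. The sh4 line held 32.3, 27.5 and 24.8 CPM with DMSO and 24.4, 29.2 and 36 CPM with doxycycline. Only the shAMB groups were separated, and B4GALNT1 rose there 1.6-fold (log2 fold change 0.68, SE 0.153, adjusted p 0.00113), against 0.08 in sh4 (SE 0.152, adjusted p 0.695). EV held 19.1, 22.2 and 29.5 CPM with DMSO and 26.9, 26.5 and 24 CPM with doxycycline (0.13, adjusted p 0.707). The shAMB effect was 0.55 above that of EV (95% confidence interval 0.09 to 1.01, adjusted p 0.0502), just short of the threshold, which it passed without EV DMSO replicate 1 or shAMB doxycycline replicate 1 (0.61 to 0.68, adjusted p 0.0158 to 0.0433), with DESeq2 (0.49, adjusted p 0.048) and with GC and length trends taken out (0.31, adjusted p 0.00906). The effects of sh4 and shAMB differed by −0.60 (adjusted p 0.0255). Control tumors held 15.3, 20.6, 18.8 and 18.8 CPM and tumors labelled KO 22.1, 20.9, 19 and 14.6 CPM, which overlapped (0.06, 95% confidence interval −0.27 to 0.38, adjusted p 0.791).

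With GC and length trends taken out, B4GALNT1 had a log2 fold change of 0.30 in shAMB, still past the threshold, and of 0.24 in sh4 (adjusted p 0.00399), and the difference between the hairpins was then −0.06 (adjusted p 0.598). That difference also missed the threshold without sh4 DMSO replicate 1, sh4 doxycycline replicate 1 or 2, shAMB DMSO replicate 2 or shAMB doxycycline replicate 3 (−0.58 to −0.47, adjusted p 0.0505 to 0.0768). Exons of genes on the other strand, SLC26A10P among them, overlap 27.1% of the B4GALNT1 exon sequence, and since it is not stated whether counting used the strand its level is uncertain. The row named SLC26A10 had 3.85 to 3.94 CPM with DMSO and 3.78 to 4.41 CPM with doxycycline in shAMB, a log2 fold change of 0.07 (adjusted p 0.668).

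**Figure D3:**
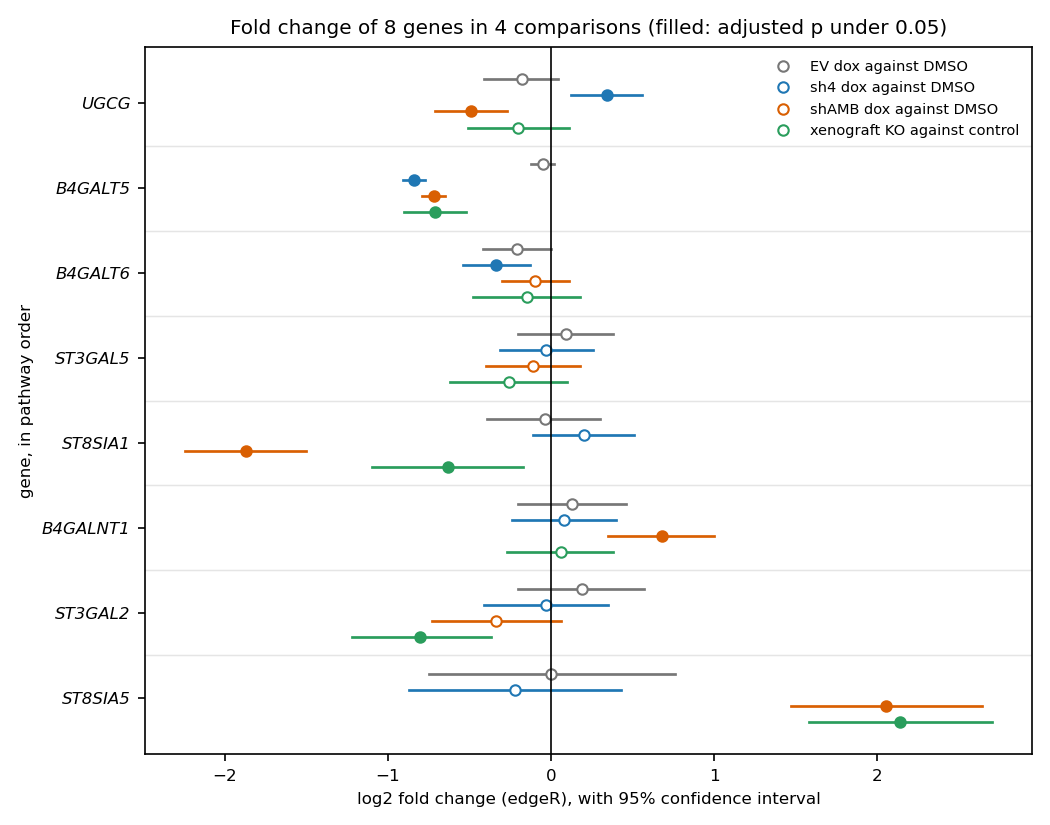
Log2 fold change with its 95% confidence interval for the 8 genes tested, in pathway order, with doxycycline against DMSO in the EV, sh4 and shAMB lines and for tumors labelled KO against control. Filled points have an edgeR adjusted p under 0.05. B4GALT5 is lower in sh4, shAMB and the tumors (−0.84, −0.72 and −0.71), ST8SIA1 in shAMB and the tumors (−1.87 and −0.63), and ST8SIA5 is higher in shAMB and the tumors (2.05 and 2.14).

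Set against each other within a library, per base of gene length, B4GALNT1 RNA exceeded ST8SIA1 RNA in all 26 libraries. In shAMB the ratio was 42.9, 44.6 and 49.9 with DMSO and 217.3, 288.7 and 302.1 with doxycycline. In sh4 it was 28.5 to 45.2 with DMSO and 31.1 to 41.9 with doxycycline, and in EV 40.7 to 95.2 and 62.6 to 73. The doxycycline libraries of shAMB thus stood above every other library, and the groups of sh4 and EV overlapped. Tumors labelled KO had ratios of 53.1, 65.7, 51.7 and 27.5, and control tumors 20.4, 39.4, 29.2 and 31.3, with KO replicate 4 inside the control range. These ratios were formed after the values of both genes had been seen and were not tested. Trends on GC content were not taken out of them, and B4GALNT1 has 58.3% GC against 39.8% in ST8SIA1.

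**Figure D4:**
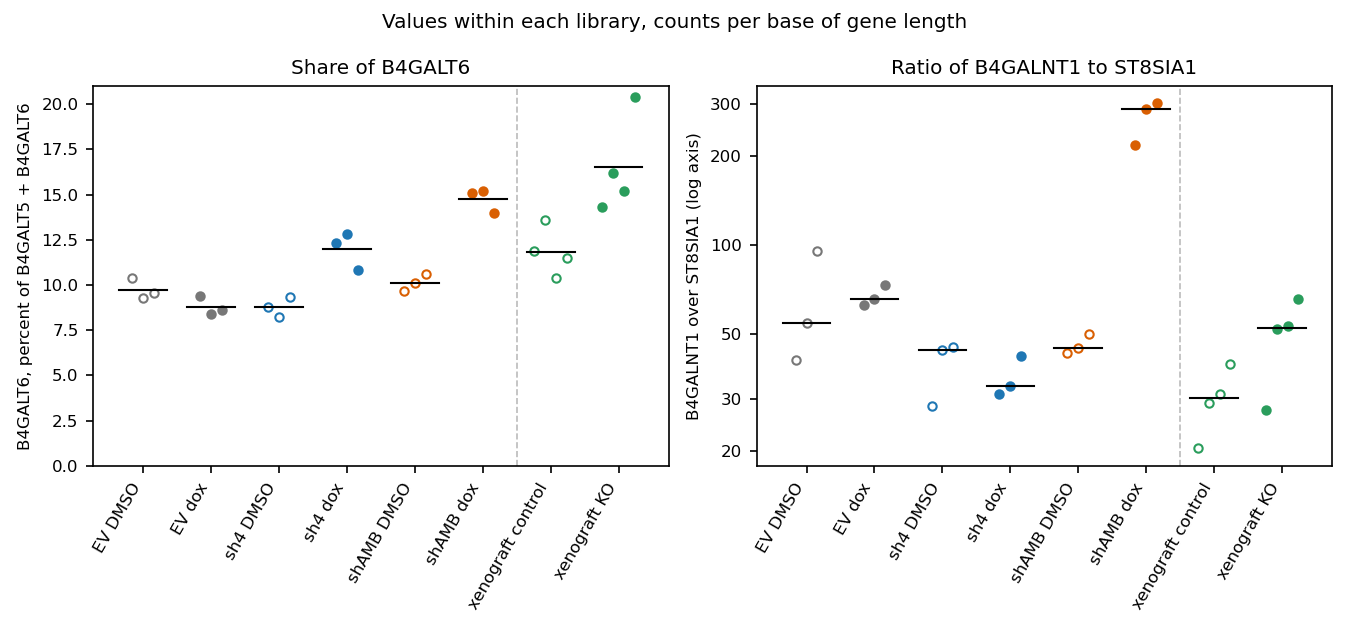
Left, share of B4GALT6 in the summed counts of B4GALT5 and B4GALT6, in percent, for every library with the group mean as a line. Right, ratio of B4GALNT1 to ST8SIA1 on a log axis, with the group median as a line, points ordered by value in each group. Both use counts per base of gene length, open circles are DMSO or control, and filled circles are doxycycline or KO. The shAMB doxycycline libraries have ratios of 217.3 to 302.1, and all other libraries lie at 95.2 or below.

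Beyond GD2, B3GALT4, which makes GM1 and GD1b, was barely detected. It maps to chromosome 6 at 33277123 to 33284832 (plus strand). It had 0 to 5 counts in the cell culture libraries and 4 to 23 in the tumors, did not pass the filter on low counts, and was not tested in either table. In 8 culture libraries its count was 0, which allows a level of up to 0.0584 to 0.0865 CPM (3 counts of the library total, counting error only). No fold is given.

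ST3GAL2, which adds the outer sialic acid of GD1a and GT1b, was lower in tumors labelled KO. Its gene lies on chromosome 16 at 70375977 to 70439237 (minus strand). Control tumors held 18.4, 27.1, 26.1 and 23.6 CPM and tumors labelled KO 18.1, 12.8, 14.4 and 9.5 CPM. The groups did not overlap, by a margin of under 1 CPM, and the log2 fold change was −0.80 (SE 0.192, adjusted p 0.00699), which ran from −0.96 to −0.66 with any 1 tumor left out. In shAMB it was at 16.1, 14.2 and 17.1 CPM with DMSO and 11.4, 12.3 and 13.9 CPM with doxycycline, also without overlap, yet its −0.34 on the log2 scale (SE 0.184, adjusted p 0.119) missed the threshold. It passed with RLE factors (−0.41, adjusted p 0.0474), with DESeq2 (−0.41, adjusted p 0.0365), with only the shAMB libraries in the fit (−0.42, adjusted p 0.00344) and with GC and length trends taken out (−0.58, adjusted p 0.000413). Libraries of sh4 held 26.7, 23.6 and 18.7 CPM with DMSO and 18.2, 18.9 and 30.5 CPM with doxycycline (−0.03, adjusted p 0.913), where the highest value is the library that stood apart from its group. Without it the difference from EV was −0.49 (adjusted p 0.0478), against −0.21 (adjusted p 0.539) with it. EV held 14.6, 16.9 and 19.5 CPM with DMSO and 21.3, 19.6 and 17 CPM with doxycycline (0.19, adjusted p 0.677).

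ST8SIA5, which adds further sialic acids to complex gangliosides and is best known from brain, rose from a very low level in shAMB and in tumors labelled KO. The gene is on chromosome 18 at 46667821 to 46759257 (minus strand). In shAMB it had 13, 15 and 7 counts with DMSO and 64, 64 and 53 with doxycycline, that is 0.32, 0.39 and 0.187 CPM against 1.43, 1.12 and 1.22 CPM. Control tumors held 0.491, 0.248, 0.376 and 0.485 CPM and tumors labelled KO 1.67, 1.92, 1.68 and 1.86 CPM. The groups were far apart in both. The log2 fold change was 2.05 in shAMB (SE 0.275, adjusted p 8.74e-06) and 2.14 in the tumors (SE 0.253, adjusted p 0.000101), 4.15-fold and 4.41-fold higher levels. With any 1 tumor left out it was 1.97 to 2.25 there. The sh4 line held 0.308, 0.374 and 0.416 CPM with DMSO and 0.401, 0.331 and 0.196 CPM with doxycycline (−0.22, adjusted p 0.587), and EV held 5 to 13 counts in any library (0.00, adjusted p 0.999). The shAMB effect exceeded that of EV by 2.05 (95% confidence interval 1.08 to 3.02, adjusted p 0.00174), and that of sh4 was below that of shAMB by −2.27 (−3.15 to −1.40, adjusted p 0.000247).

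Counted over the pathway, no member changed with doxycycline in the EV line, where 0.0939% of all genes did with edgeR (0.0134% higher and 0.0805% lower), and DESeq2 called none either (20 of 15854 genes). At an unadjusted p under 0.05 it was 1 of 8 (B4GALT6), against 879 of 14905 genes, and 1 had groups that did not overlap, against 14.1% of all genes. In sh4, 3 of 8 changed, where 40.9% of all genes did. UGCG was higher (22.9% of all genes), B4GALT5 and B4GALT6 were lower (18%), and 3 had groups that did not overlap (41.3%). In shAMB, 5 of 8 changed, where 66% of all genes did. B4GALNT1 and ST8SIA5 were higher (37.6% of all genes), UGCG, B4GALT5 and ST8SIA1 were lower (28.4%), and 6 had groups that did not overlap (73.4%). In tumors labelled KO, 4 of 8 changed, where 41.1% of all genes did. ST8SIA5 was higher (21.2% of all genes), B4GALT5, ST8SIA1 and ST3GAL2 were lower (19.9%), and 3 had groups that did not overlap (36.7%). The number of members called was thus near the background in sh4, shAMB and the tumors. The members' median log2 fold change was −0.02 for EV, −0.03 for sh4, −0.22 for shAMB and −0.23 for the tumors, beside 0.01, 0.00, 0.10 and 0.02 over all genes tested.

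Tests of the difference between lines gave 2 of 8 members for sh4 against EV, where 32.6% of all genes passed. UGCG was above (17.8% of all genes) and B4GALT5 below (14.7%). They gave 3 of 8 for shAMB against EV, where 45.5% passed. ST8SIA5 was above (23.7%) and B4GALT5 and ST8SIA1 were below (21.7%). Between the hairpins, 5 of 8 passed, where 60.9% of all genes did. UGCG and ST8SIA1 were higher in sh4 (27.8%), and B4GALT5, B4GALNT1 and ST8SIA5 were lower (33.1%). The 2 hairpin comparisons against EV share the EV libraries. Changes of at least 2-fold past the threshold were those of ST8SIA1 and ST8SIA5, 2 members in shAMB, where 17.9% of genes met that limit, and that of ST8SIA5 in the tumors, where 12.5% did. Both also met it against EV in shAMB (12.7% of genes) and between the hairpins (21.6%). No member met it in EV, in sh4 (5.03%), for sh4 against EV (5.62%) or between the lines with DMSO (0.228% for sh4 and 0.268% for shAMB against EV).

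The genes whose log2 CPM over the 18 culture libraries ran closest to ST8SIA1 were PCDHB2 (Pearson r 0.959), TGFBR2 (0.950), a TGF-beta receptor, and SLC8A3 (0.947), a sodium/calcium exchanger. Closest to B4GALNT1 were SRC (0.979), a tyrosine kinase, TMEM147-AS1 (0.976) and HMOX1 (0.974), heme oxygenase 1. These describe 12709 genes of at least 1 CPM over libraries that share lines and GC slopes. ST8SIA1 and B4GALNT1 themselves had an r of −0.38 over the same 18 libraries.

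The pathways that feed, compete with and degrade GD2 were described with 5 lists, chosen with earlier results of these data known. None of their genes changed in EV with edgeR, where 0.0939% of all genes did. Among 8 tested sialyltransferases that act mainly on glycoproteins, 5 fell and none rose in sh4 (40.9% of all genes changed), 4 fell and 2 rose in shAMB (66%), and 5 fell and none rose in the tumors (41.1%), with median log2 fold changes of −0.53, −0.24 and −0.49. Over all genes tested these medians were 0.00, 0.10 and 0.02. ST8SIA2, which builds polysialic acid on NCAM1, fell in sh4 from 89.4 to 40.1 ± 1.74 CPM (log2 fold change −1.16, SE 0.0436, adjusted p 2.01e-11) and also in shAMB (−0.41, adjusted p 7.22e-07) and the tumors (−0.48, adjusted p 0.0241), and with DMSO shAMB was already below EV (−0.20, adjusted p 0.0291). ST8SIA4, the other polysialic acid synthase, fell in sh4 (−0.89, adjusted p 0.000167), where with DMSO it had been above EV (0.81, adjusted p 0.0119), and was at −0.07 in shAMB and −0.55 in the tumors (adjusted p 0.707 and 0.0749). ST3GAL3 and ST3GAL6 fell in all 3, ST3GAL3 by log2 fold changes of −0.85 in sh4, −0.56 in shAMB and −1.22 in the tumors (adjusted p 0.000101, 0.00203 and 0.00315) and ST3GAL6 by −0.70, −0.64 and −0.50 (1.08e-05, 1.08e-05 and 0.0114). Other genes of the same strand share 10.4% of the ST3GAL3 exon sequence. ST6GAL1, which caps N-glycans with sialic acid, rose in shAMB (0.62, adjusted p 2.61e-10) and fell in sh4 (−0.36, adjusted p 3.12e-07) and the tumors (−0.33, adjusted p 0.00645).

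Of 12 genes that supply sialic acid and sugar nucleotides, 3 rose and 2 fell in sh4, 3 rose and 8 fell in shAMB, and 1 rose and 6 fell in the tumors, with medians of 0.05, −0.26 and −0.28. Thus 41.7%, 91.7% and 58.3% changed, where 40.9%, 66% and 41.1% of all genes did, with all-gene medians of 0.00, 0.10 and 0.02. GFPT1, the entry enzyme of the hexosamine pathway, rose in all 3, with log2 fold changes of 0.83 (adjusted p 1.26e-07), 0.92 (1.63e-08) and 0.88 (0.000195). CMAS, which activates sialic acid as the CMP donor that every sialyltransferase uses, fell in shAMB from 82.4 to 49.2 ± 2.23 CPM (−0.75, adjusted p 2.29e-07), in sh4 (−0.31, adjusted p 0.00268) and in the tumors (−0.45, adjusted p 0.00282). NANS, a sialic acid synthase, fell in the tumors (−0.48, adjusted p 0.0194) and in shAMB (−0.23, adjusted p 0.044), and was at −0.20 in sh4 (adjusted p 0.104).

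Of 9 tested glycosyltransferases of the lacto, globo and other branches, 2 rose and none fell in sh4, 3 rose and 3 fell in shAMB, and in the tumors 4 of 10 rose and 3 fell. These are 22.2%, 66.7% and 70% of the list, against 40.9%, 66% and 41.1% of all genes. B3GNT5, which draws lactosylceramide into the lacto branch, rose in sh4 (0.75, SE 0.0777, adjusted p 1.45e-06) and fell in shAMB (−1.37, SE 0.0804, adjusted p 8.72e-10) and in the tumors (−0.74, SE 0.164, adjusted p 0.0043). Exons of MCF2L2 on the other strand overlap 16.2% of its exon sequence, and its level is uncertain. With DMSO, B3GNT5 in shAMB was above EV (0.52, adjusted p 0.00176). ST3GAL1 rose in the tumors (1.08, adjusted p 0.00459) and shAMB (0.53, adjusted p 0.000203), and ST6GALNAC5, which sialylates GM1b-type gangliosides, fell in the tumors (−0.72, adjusted p 0.00478) and shAMB (−0.84, adjusted p 7.39e-07). In sh4 their values were −0.24 and −0.20 (adjusted p 0.0601 and 0.0854). ST6GALNAC6 rose in shAMB (1.12, adjusted p 6.33e-05), sh4 (0.46, adjusted p 0.0495) and the tumors (0.65, adjusted p 0.0227), but 47% of its exon sequence also belongs to another gene of the same strand.

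Of 19 tested genes of ceramide synthesis and transport, 9 rose and 4 fell in sh4 and 5 rose and 6 fell in shAMB, and in the tumors 3 of 20 rose and 4 fell. The list thus changed at 68.4%, 57.9% and 35%, beside 40.9%, 66% and 41.1% of all genes. SAMD8, which makes ceramide phosphoethanolamine, rose in sh4, shAMB and the tumors (0.62, 0.44 and 0.63, adjusted p 4.39e-06, 7.16e-05 and 0.000661). GLTP, a glycolipid transfer protein, fell in shAMB (−1.12, adjusted p 2.01e-09) and the tumors (−1.30, adjusted p 0.000106), and was at −0.03 in sh4 (adjusted p 0.765). SPTLC2, a subunit of the enzyme that starts sphingolipid synthesis, likewise fell in shAMB (−0.77, adjusted p 9.12e-09) and the tumors (−0.69, adjusted p 0.000139), and was at −0.05 in sh4 (adjusted p 0.516). KDSR, the next enzyme of that route, fell in sh4 (−0.76, adjusted p 2.14e-05), against 0.12 in both shAMB and the tumors (adjusted p 0.303 and 0.457). PLEKHA8, which carries glucosylceramide, rose in sh4 (0.50, adjusted p 1.53e-05) and shAMB (0.18, adjusted p 0.0269), and was at 0.19 in the tumors (adjusted p 0.169).

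Of 16 tested genes of lysosomal and other ganglioside breakdown, 3 rose and 7 fell in sh4, 4 rose and 6 fell in shAMB, and 1 rose and 6 fell in the tumors, with medians of −0.19, 0.04 and −0.32. Changes thus covered 62.5%, 62.5% and 43.8% of the list, where 40.9%, 66% and 41.1% of all genes changed. The all-gene medians were 0.00, 0.10 and 0.02. GM2A, the activator protein of GM2 breakdown, fell in shAMB from 16.9 to 3.89 ± 0.208 CPM (log2 fold change −2.11, SE 0.0759, adjusted p 3.37e-12) and in the tumors from 23.1 to 6.06 ± 0.901 CPM (−1.93, SE 0.133, adjusted p 6.46e-06). In sh4, GM2A fell as well (−0.47, adjusted p 6.08e-05). NEU3, the plasma membrane sialidase of gangliosides, fell in sh4 (−0.54, adjusted p 5.69e-05) and was at 0.03 in shAMB and −0.01 in the tumors (adjusted p 0.729 and 0.943). GLB1, which takes galactose off GM1, fell in shAMB (−0.51, adjusted p 9.78e-08) and the tumors (−0.72, adjusted p 0.000428) and rose in sh4 (0.22, adjusted p 0.000719). ASAH1, acid ceramidase, did the same, with −0.71 in shAMB, −0.47 in the tumors and 0.38 in sh4 (adjusted p 9.57e-08, 0.0127 and 0.000152). ARSA rose in shAMB (1.36, adjusted p 6.7e-05), with 0.80 in the tumors and −0.50 in sh4 (adjusted p 0.0927 and 0.0817).

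**Figure D5:**
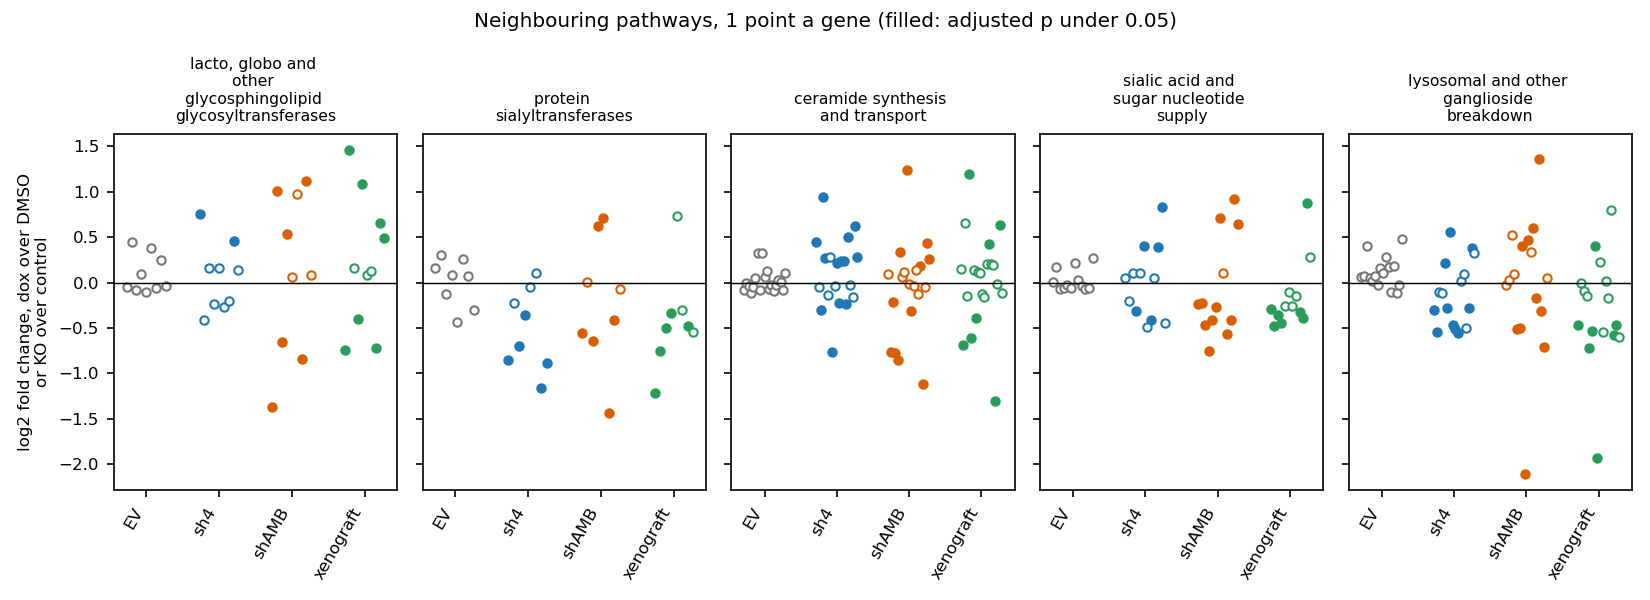
Log2 fold change of every tested gene of 5 neighbouring pathways, 1 point a gene, with doxycycline against DMSO in EV, sh4 and shAMB and for tumors (xenografts) labelled KO against control. Filled points have an edgeR adjusted p under 0.05. The lowest point of the breakdown panel is GM2A in shAMB, at −2.11, and no point of the EV columns is filled.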

How the data were processed

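RNA had been sequenced in 18 cell culture and 8 xenograft libraries with a stranded total RNA kit, although the labels also name polyA RNA. The submitters' processing notes name STAR, SAMtools, RSEM and the build hg38. Their versions, the annotation, the use of strand in counting and any removal of mouse reads from the xenografts are not given in the sources used here. The authors deposited RSEM expected counts and TPM (abundance scaled for length and library) for 26485 genes in culture and in xenografts. No column of per-sample values was left unused. The deposited TPM values served only for an alternative of the B4GALT6 share.

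Expected counts were rounded and tested with edgeR 4.0.16 in R 4.3.3 after filterByExpr and TMM scaling (factors 0.974 to 1.07 in culture and 0.935 to 1.09 in xenografts). All 18 culture libraries were fitted together, with 1 coefficient for each group, and the xenografts apart. There were 9 comparisons. The B4GALT6 share was compared by exact two-sided permutation over libraries. Alternatives were RLE factors, no filter, DESeq2 1.42.0, a replicate block, offsets for GC content and length (splines of 5 degrees of freedom), a fold limit of 2, fits of 1 line alone and leaving out each library. The script was tested on simulated data. Correlations used log2 of CPM plus 0.1. Shares of exon overlap and positions come from GENCODE on GRCh38. Chi-square per degree of freedom between replicates was at least 1.8, above sampling noise, and each library counted once.

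The members and lists were chosen with earlier results of these data known. The text names the members, RUNX1T1, the 3 genes most correlated with ST8SIA1 and with B4GALNT1, and genes out of the 3 largest changes at 1 CPM or more in each list and comparison, with their values in the other comparisons. SLC26A10 was added after its overlap was seen. Intervals are 95% confidence intervals of the fit, and limits from a count of 0 cover counting error alone, since reads are not independent molecules.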

Additional observations from a re-analysis of the deposited data

Results flagged for a closer look

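The effect of doxycycline differed between lines, by edgeR's test of the difference itself, for 5 of the 8 members tested in at least 1 of 3 comparisons. Members passing were 2 for sh4 against EV, 3 for shAMB against EV and 5 between the hairpins. Of all genes, 32.6%, 45.5% and 60.9% passed these tests, so that such differences were common. For UGCG it differed by 0.52 on the log2 scale between sh4 and EV and by 0.83 between sh4 and shAMB. For B4GALT5 it differed by −0.79 between sh4 and EV, −0.67 between shAMB and EV and −0.12 between sh4 and shAMB. The last of these calls was lost without any of 11 of the 12 libraries. For ST8SIA1 it differed by −1.83 between shAMB and EV and 2.07 between sh4 and shAMB. For B4GALNT1 it differed by −0.60 between sh4 and shAMB, a call lost without any of 5 of the 12 libraries. With GC and length trends taken out that difference was −0.06 (edgeR adjusted p 0.598). For ST8SIA5 it differed by 2.05 between shAMB and EV and −2.27 between sh4 and shAMB. No xenograft group of 4 held a library far from the others in any of the 9 genes by Dixon's test at 95%.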

How the results depend on the processing

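For members called in the main fit, none of 329 alternative values changed its sign, while 47 of 647 alternatives to values not called did. Many of these alternatives leave out 1 library and share all the others with the main fit. With GC and length trends taken out, 2 members not called before took the other sign and passed, B4GALT6 in shAMB (0.19) and B4GALNT1 in sh4 against EV (0.25), and the number of members called became 4 for sh4 against EV and 5 for shAMB against EV, while calls over all 14905 genes rose from 4856 to 6160 and from 6776 to 8417. With a fold of at least 2 the numbers called were 0 in sh4, 2 in shAMB, 0 for sh4 against EV, 2 between the hairpins, 0 for sh4 against EV with DMSO and 1 in the xenografts. Of all genes, 5.03%, 17.9%, 5.62%, 21.6%, 0.228% and 12.5% met that limit, in the same order. Leaving out 1 library gave 2 to 3 in sh4, 5 in shAMB, 2 to 3 for sh4 against EV, 3 to 5 for shAMB against EV (5 without EV DMSO replicate 1), 3 to 4 between the hairpins and 3 to 4 in the xenografts, and the B4GALT6 share difference ran from 2.81 to 3.8 percentage points in sh4, 4.44 to 5.04 in shAMB and 3.37 to 5.41 in the xenografts. Replicate numbers did not pair the libraries (correlations of same-numbered deviations −0.603 to 0.374). With the replicate as a block the members called were 0 in EV, 3 in sh4, 5 in shAMB, 2 and 3 against EV, 4 between the hairpins, and 3 in the xenografts, where ST8SIA1 had an adjusted p of 0.058. That block called 15, 5974, 9756, 4735, 6617 and 9003 of all 14905 genes in these culture comparisons, and 4929 of 15960 in the xenografts. Over all genes, taking out GC and length trends gave 29 calls in EV against 14 (51.7% against 14.3% of them higher), 878 against 167 for sh4 against EV with DMSO (84.4% against 53.3% higher) and 562 against 227 for shAMB against EV with DMSO (48.6% against 72.7% higher). It gave 37.6% against 54.8% higher for sh4 against EV and 35.6% against 45.7% between the hairpins. Calls in sh4 were 3727 with only its libraries against 6091, 6 in EV with only its libraries, and 348 for sh4 against EV with DMSO by DESeq2. Leaving out 1 library gave 7 to 14 in EV, 75 to 269 for sh4 and 125 to 188 for shAMB against EV with DMSO, and 3753 to 7557 against 4856 for sh4 against EV. It gave 4875 to 8050 in sh4, 8816 to 9598 in shAMB and 4961 to 7078 in the xenografts. The causes were not tested. ST8SIA1, ST8SIA5 and B3GALT4 rest on few counts, which limits their precision.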
